A study of Mus musculus with 2 samples.

Results

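Keratins 8, 18, 19 and 20 are the intermediate filament proteins of simple epithelium, the single cell layer that lines organs such as the gut. The transcripts of their 4 genes, Krt8, Krt18, Krt19 and Krt20, were followed across the cell types of the mouse ileum in WT and Tipe0-/- mice. They were chosen by symbol, and 4 of the 27998 genes in the count tables carry one of these symbols. All 4 were measured in both libraries, and no filter on low values was applied to them.

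Keratin filaments are built from pairs of 1 type II and 1 type I chain, and an unpaired chain is degraded. Krt8 encodes the type II chain of this group, and Krt18, Krt19 and Krt20 encode type I chains that can pair with it. The filaments carry mechanical load across the epithelial sheet and attach to desmosomes, the junctions that rivet neighbouring cells together. Keratin 20 is widely used as a marker of differentiated intestinal epithelium.

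The data are 2 sc-RNASeq libraries of ileal epithelium, 1 from WT mice and 1 from TNFAIP8-/- mice, called Tipe0-/- here, on a C57BL/6 background and 8 weeks old. Cells of 3 mice per genotype were pooled before sequencing, so each genotype has 1 library and the mice cannot be separated. The labels speak of enteroids digested with collagenase and dispase, the study's methods of enterocytes digested with DNase I and Dispase. The study states that its sc-RNASeq profiled the epithelium of undamaged mice and calls the cells isolated enterocytes. Why the labels speak of enteroids was not resolved. The labels name the cells as enterocytes, but goblet-, Paneth-, tuft- and lymphocyte-like cells were present in both libraries. Each captured mRNA carries a unique molecular identifier (UMI) near its 3′ end, so levels are given as UMIs per 1000000 UMIs (CPM) without division by transcript length.

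The WT library held 3402 cells and 38127808 UMIs, the Tipe0-/- library 2006 cells and 23897126 UMIs, with medians of 7760 and 7307.5 UMIs per cell and 9 barcodes found in both. Mitochondrial genes took 6.59% of WT and 8.56% of Tipe0-/- UMIs. Tnfaip8, the targeted gene, was read at 9.76 CPM in WT (372 UMIs) and 2.39 CPM in Tipe0-/- (57 UMIs). With 1 library per genotype no test was possible, and no p-value is given. All intervals are 95% intervals of counting error alone (Poisson for levels, exact binomial for ratios, Clopper-Pearson for shares). They do not contain the spread between mice, between digestions or between library preparations, which cannot be told apart from the genotype.

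Krt8 (ENSMUSG00000049382) lies at chr15:101996698-102004482 on the minus strand of mm10, and Krt18 (ENSMUSG00000023043) at chr15:102028180-102032027 on the plus strand. The pair stands head to head with 23697 bases between the genes. Krt20 (ENSMUSG00000035775, chr11:99428403-99438150) and Krt19 (ENSMUSG00000020911, chr11:100140810-100148665) are both on the minus strand of chromosome 11. The lincRNA Gm36026 overlaps the 5′ end of Krt8 on the other strand and has no row in the count tables.

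The upstream sequences of the head-to-head neighbours Krt8 and Krt18, which had unlike patterns across cell types, and of Krt20 are shown 5′ to 3′ on the strand of the gene (RefSeq start sites, GRCm38.p6). RefSeq entries were matched for these 3 of the 4 genes. For Krt8 and Krt18, the bases closest to the RefSeq start lie inside the GENCODE gene and are left out. Capitals mark letters that match 1 of 6 motifs searched on both strands.
Krt8, chr15:102004483-102004592, minus strand: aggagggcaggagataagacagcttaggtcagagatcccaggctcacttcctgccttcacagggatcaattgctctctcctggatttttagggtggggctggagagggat
Krt18, chr15:102027966-102028179, plus strand: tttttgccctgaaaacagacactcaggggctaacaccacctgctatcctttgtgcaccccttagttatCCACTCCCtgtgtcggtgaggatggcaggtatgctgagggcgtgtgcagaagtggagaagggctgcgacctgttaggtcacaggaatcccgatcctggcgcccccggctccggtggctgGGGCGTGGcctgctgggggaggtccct
Krt20, chr11:99438154-99438403, minus strand: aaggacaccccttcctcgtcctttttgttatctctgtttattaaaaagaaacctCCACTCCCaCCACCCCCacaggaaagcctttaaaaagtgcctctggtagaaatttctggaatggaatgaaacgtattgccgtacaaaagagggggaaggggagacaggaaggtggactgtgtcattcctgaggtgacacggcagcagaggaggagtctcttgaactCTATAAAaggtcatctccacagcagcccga

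The motifs were counted in the 250 bases before each RefSeq start. TATAAA, the core of the TATA box, was found in 12.4% of 32851 such windows and in that of Krt20, 29 to 24 bases before the start. TTTATNG, a form bound by CDX factors, was found in 9.81% of windows, and its match in Krt20 overlaps that of TATAAA. GGGNGTGG, a form bound by KLF factors, was found in 15.9% of windows, 2 times each in those of Krt18 and Krt20 and not in that of Krt8. GGGCGG (32.7% of windows), TGANTCA (6.75%) and CAAAGTCCA (0.384%) had no match in the windows of these 3 genes. These matches describe letters only.

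Cells were clustered without any keratin gene among the clustering genes, and the 13 clusters were named from fixed marker genes of other families. Names ending in -like denote these classes, and 1 cluster led by Akr1c19 had too few markers and remained unnamed. Lymphocyte-like cells, which should not make these keratins, were used as the background level. Over both libraries it was 531 CPM for Krt8, 126 for Krt18, 364 for Krt19 and 30.2 for Krt20, from 108 cells. Per UMI, Paneth-like cells were below this level for Krt8 (369 CPM), Krt19 (154 CPM) and Krt20 (8.81 CPM) and near it for Krt18 (141 CPM). Their median depth was 22521.5 UMIs per cell against 4331 in lymphocyte-like cells. With every cell thinned to 3000 UMIs, Krt18 was found in 33.4% of Paneth-like (28.9 to 38.1) and 19.4% of lymphocyte-like cells (12.5 to 28.2), and Krt8 in 63.3% and 50%. Krt19 (34.4% and 38.9%) and Krt20 (4.03% and 4.63%) were not above the background by either measure, while for Krt8 and Krt18 the measures differ. Both measures are relative to a cell's own depth, here and wherever a level is set against this background. As raw sums, 422 Paneth-like cells held 3852 UMIs of Krt8, 1474 of Krt18, 1614 of Krt19 and 92 of Krt20. The 108 lymphocyte-like cells held 299, 71, 205 and 17. Per cell the Paneth-like sums of Krt8, Krt18 and Krt19 were thus the larger, and the outcome depends on how depth is taken into account. No level of expression of the 4 keratins is therefore read for this class.

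Along the stem-, cycling- and enterocyte-like cells of both libraries, Krt8 and Krt19 were lowest in the first and highest in the last, and Krt20 was above background only in enterocyte-like cells. Krt18 ran the other way. In WT, Krt8 was 929 CPM in stem-like (892 to 968), 2370 in cycling-like (2335 to 2406) and 4190 in enterocyte-like cells (4147 to 4234). In Tipe0-/- the Krt8 levels were 1054, 2413 and 4222 CPM in the same order. With the libraries pooled, Krt8 was 4.24-fold higher in enterocyte-like than in stem-like cells (log2 2.08, 2.04 to 2.13).

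Krt19, the smallest type I keratin, which lacks most of the tail domain, followed Krt8. It was 494, 1659 and 2322 CPM in WT stem-, cycling- and enterocyte-like cells and 539, 1627 and 2248 CPM in Tipe0-/-. The pooled enterocyte-like level was 4.45-fold that of stem-like cells (log2 2.15, 2.096 to 2.213). In Tipe0-/- the stem-like interval (511 to 569) lay within that of lymphocyte-like cells (365 to 679), so this fold also depends on the background level. No gap between neighbouring stages was within the counting intervals in either library.

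Krt18, the usual partner of Krt8 in many simple epithelia, was 355, 269 and 141 CPM in WT stem-, cycling- and enterocyte-like cells and 302, 244 and 125 CPM in Tipe0-/-. Stem-like cells thus held 2.42-fold more Krt18 per UMI than enterocyte-like cells (log2 of enterocyte-like over stem-like -1.27, -1.37 to -1.17). The enterocyte-like level is hardly above the background of 126 CPM. Its interval overlapped that of lymphocyte-like cells in both libraries.

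Krt20 was 15.5, 29.5 and 1024 CPM in WT stem-, cycling- and enterocyte-like cells and 15.3, 29.8 and 887 CPM in Tipe0-/-. The stem- and cycling-like values do not exceed the lymphocyte-like background. The pooled enterocyte-like level was 63.4-fold the stem-like one (log2 5.99, 5.67 to 6.34). Since the stem-like value does not exceed the background, this fold depends on the background level. Among 9906 genes compared in the same way, 16.0% were at least 1 log2 higher in enterocyte-like than in stem-like cells and 33.2% at least 1 log2 lower, with a median of -0.43.

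**Figure D1:**
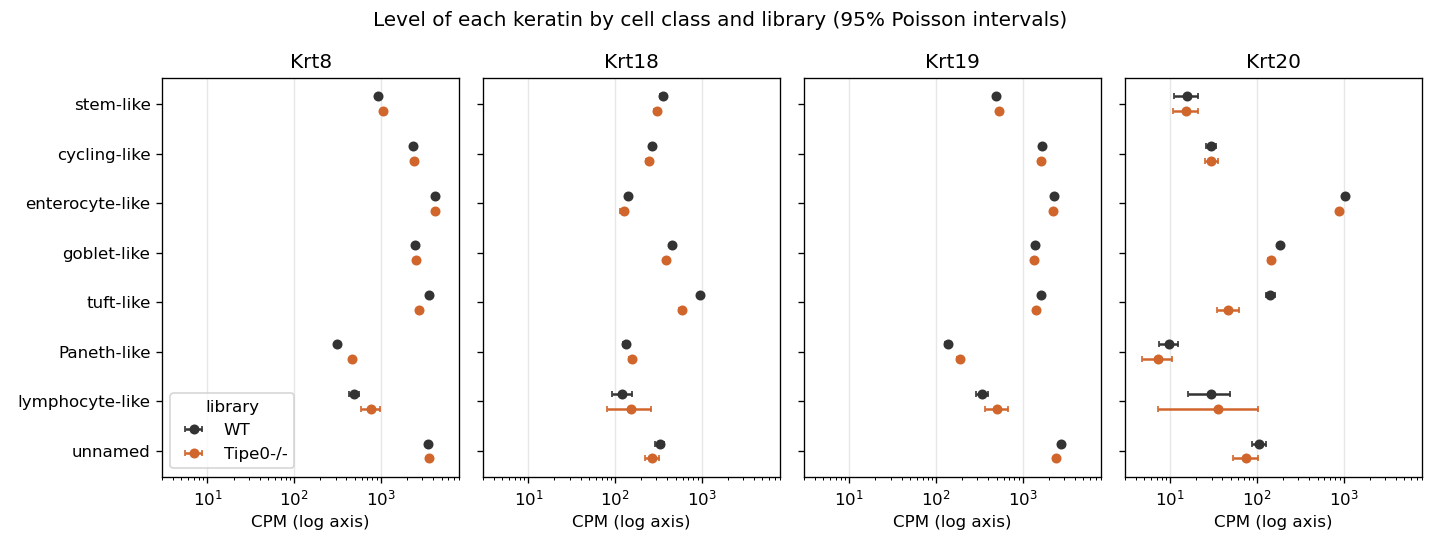
Level of Krt8, Krt18, Krt19 and Krt20 in CPM (log axis) for each cell class, with the WT library in black and the Tipe0-/- library in orange, and bars for 95% Poisson intervals. Krt8, Krt19 and Krt20 are higher in enterocyte-like than in stem-like cells, Krt18 is lower there and highest in tuft-like cells, and Paneth-like cells lie near or below the lymphocyte-like level in CPM.

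The same order was seen in the shares of cells with a UMI, taken after each cell was thinned to 3000 UMIs. Krt20 was found in 3.30% of WT stem-like, 8.19% of cycling-like and 87.7% of enterocyte-like cells, and in 2.78%, 4.32% and 81.1% of the Tipe0-/- cells. WT lymphocyte-like cells, with a median of 4422 UMIs before thinning, gave 3.26%, against medians of 6208 in WT stem-like and 6549 in WT enterocyte-like cells. Krt18 went from 64.0% of WT stem-like cells to 26.4% of enterocyte-like cells (58.7% and 23.8% in Tipe0-/-), beside 18.5% of WT lymphocyte-like cells. Of the 16 Tipe0-/- lymphocyte-like cells, 18.75% held Krt18 without Krt20 and 6.25% held both. With 16 cells this background is too imprecise to say whether the Tipe0-/- enterocyte-like share lay above it. Krt8 was found in at least 99.8% of enterocyte-like cells of either library and in 47.8% of WT lymphocyte-like cells. Over whole libraries the thinned shares for Krt8, Krt18, Krt19 and Krt20 were 93.4%, 49.6%, 81.5% and 36.1% in WT and 95.3%, 49.6%, 84.1% and 30.3% in Tipe0-/-. Without thinning the Krt20 shares were 48.7% and 44.9%. In thinned cells an absent UMI is not an absent transcript.

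Within the proliferating cells, Krt8, Krt19 and Krt20 were higher in the cluster led by Parpbp and Cdc20, genes of mitosis, than in the cluster led by Ccne2 and Cdc6, genes of DNA replication. Over both libraries Krt8 was 2672 against 1918 CPM, Krt19 1824 against 1356 CPM and Krt20 40.1 against 12.5 CPM. Neither Krt20 interval lay above that of the lymphocyte-like background (17.6 to 48.3 CPM). Krt18 was 233 against 303 CPM, a log2 ratio of -0.38 (-0.48 to -0.27). The median depth also differed, with 9137 UMIs per cell in the Parpbp, 4851 in the Ccne2 and 4331 in the lymphocyte-like cluster. Its part in these values was not tested.

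The enterocyte-like class was made of 3 clusters in which the keratins differed widely. The Cldn8 cluster, with no enterocyte marker among its 10 leading genes, had the highest Krt8 and Krt19 of the 3, at 4891 and 3414 CPM. The Arg2 cluster, with Fabp6, the ileal bile acid binding protein, among its leading genes, was at 4790 CPM for Krt8 and 2935 for Krt19. The Apoa4 cluster, led by an apolipoprotein gene of the villus tip, was at 3320 CPM for Krt8 and 1016 for Krt19. Krt20 ran against these, at 376, 865 and 1574 CPM. Krt18 was 222, 134 and 59.7 CPM, so that the Apoa4 cluster lay below the pooled lymphocyte-like background.

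These differences were set out along a villus position score, the mean standardised level of Ada, Nt5e, Slc28a2, Creb3l3, Apoa4, Apoa1 and Apoc3, genes known to be used towards the villus tip. The score was divided into 5 ranges over the enterocyte-like cells of both libraries, with 420 cells in the lowest because of ties, 148 in the next and 284 in each of the others. The Cldn8 cluster gave 352 cells of the lowest range and the Apoa4 cluster 278 cells of the top range, so the ends of the score largely restate these clusters. The median depth was 5739.5 UMIs per cell in the lowest, 11236 in the next and 5089.5 in the top range, and its part was not tested. The score is a range of 1 measure and not a cell type. From the lowest to the highest range in WT, Krt20 was 508, 608, 1076, 1355 and 2114 CPM. In Tipe0-/- Krt20 was 384, 399, 833, 1185 and 1788 CPM. The top range thus held 4.16-fold (WT) and 4.65-fold (Tipe0-/-) the Krt20 of the lowest range.

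Krt19 showed the reverse, with 3303, 3520, 2241, 1212 and 539 CPM in WT and 3415, 3379, 2411, 1129 and 567 CPM in Tipe0-/-. The lowest range held 6.12-fold (WT) and 6.01-fold (Tipe0-/-) the Krt19 of the top range. Krt8 was lower at the top by a smaller factor, 1.46-fold in WT (4788 to 3290 CPM) and 1.75-fold in Tipe0-/- (5222 to 2982 CPM). Krt18 was 209 CPM in the lowest and 59.7 CPM in the top range in WT, and 206 and 29.6 CPM in Tipe0-/-.

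Krt8 made up 54.1 to 55.2% of the UMIs of the 4 keratins in every range of the WT cells and 55.6 to 57.0% in the Tipe0-/- cells, while the 4 genes together took 0.881% of WT UMIs in the lowest range and 0.600% in the top range. Within enterocyte-like cells, the rank correlation of thinned counts was 0.52 (WT) and 0.58 (Tipe0-/-) between Krt8 and Krt19 and -0.46 and -0.53 between Krt19 and Krt20, over 954 and 466 cells that share a library.

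**Figure D2:**
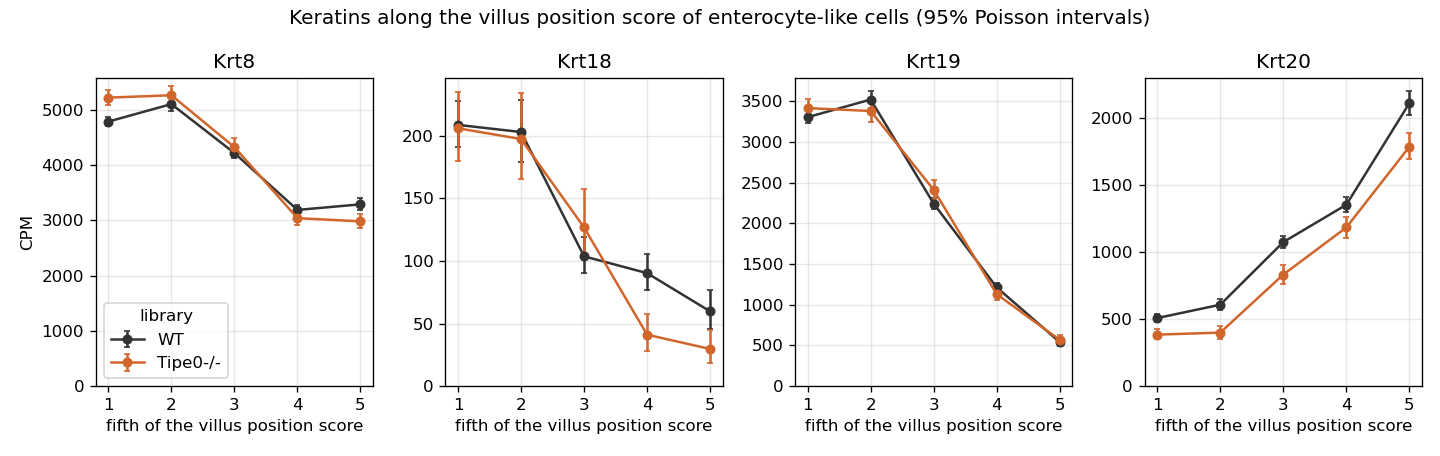
Levels in CPM of the 4 keratins in the 5 ranges of the villus position score of enterocyte-like cells, from lowest (1) to highest (5), WT in black and Tipe0-/- in orange, with 95% Poisson intervals. Krt20 goes from 508 to 2114 in WT and from 384 to 1788 in Tipe0-/-, while Krt19 goes from 3303 to 539 and from 3415 to 567.

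Among secretory cells, tuft-like cells, the chemosensory cells of the epithelium, had the highest Krt18 of any class, at 940 CPM in WT (899 to 983) and 591 CPM in Tipe0-/- (545 to 639). Goblet-like cells, which make mucus, came next at 450 and 386 CPM. Both classes also held Krt8 (3551 and 2778 CPM in tuft-like, 2483 and 2532 CPM in goblet-like cells) and Krt19 (1603 and 1418 CPM, 1371 and 1358 CPM). Krt20 was 182 and 144 CPM in goblet-like and 143 and 46.9 CPM in tuft-like cells.

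The 3 goblet-like clusters differed from each other most in Krt20 and Krt18. The Id4 cluster, in which Spdef, a transcription factor of secretory cells, is a leading gene, had 49.4 CPM of Krt20 and 357 CPM of Krt18. The Sval1 cluster, with the mucus genes Zg16 and Clca1 among its leading genes, had 361 CPM of Krt20 and 859 CPM of Krt18. Its Krt18 was thus as high as that of tuft-like cells, at 824 CPM over both libraries. The Frmd3 cluster, which also has Zg16 among its leading genes, had 676 CPM of Krt20 and 432 CPM of Krt18. It met the naming rule with 9 of the 12 goblet markers, but none of them was among its 10 leading genes. Its second highest marker score was that of enterocytes. Krt20 was thus 7.32-fold higher in the Sval1 than in the Id4 cluster (log2 2.87, 2.72 to 3.03), with Krt18 2.41-fold higher as well. The Krt20 interval of the Id4 cluster (45.6 to 53.3) overlapped that of the lymphocyte-like background (17.6 to 48.3), so this Krt20 fold depends on the background level. The median depth was 15921 UMIs per cell in the Id4 and 5000 in the Sval1 cluster, beside 4331 in lymphocyte-like cells. The part of depth in these values and in the overlap was not tested. Krt20 and Krt18 were found together in 39.1% (WT) and 57.8% (Tipe0-/-) of the thinned cells of the Sval1 cluster.

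Enteroendocrine-like cells, which secrete hormones, formed a cluster only with variable genes chosen by the vst method, with 40 WT and 27 Tipe0-/- cells. Krt8 was 1401 and 1794 CPM there, Krt18 380 and 287 CPM, Krt19 700.5 and 1133 CPM, and Krt20 154 and 155 CPM. The log2 ratio of Tipe0-/- over WT was 0.69 for Krt19 in these few cells (0.49 to 0.90, from 332 and 510 UMIs), 0.36 for Krt8 and -0.41 for Krt18, beside a median of 0.0097 over all genes. The unnamed Akr1c19 cluster had the highest Krt19 of any class, at 2724 CPM in WT and 2415 CPM in Tipe0-/-. In Tipe0-/- its interval overlapped that of the enterocyte-like class.

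The type II share varied less across these cells than the type I makeup. Krt8 was 54.8% of the UMIs of the 4 keratins in WT (54.6 to 55.0) and 56.6% in Tipe0-/- (56.3 to 57.0). Among the 6 epithelial classes it lay between 51.8% (stem-like) and 56.9% (tuft-like) in WT and between 55.2% (stem-like) and 57.5% (tuft-like) in Tipe0-/-. The share was higher in Tipe0-/- than in WT in each of the 6. The WT and Tipe0-/- intervals overlapped in tuft-like (56.1 to 57.8 and 56.1 to 58.8) and cycling-like cells (54.2 to 55.3 and 55.2 to 56.6). Single clusters lay outside these ranges, with 50.2% in the Sval1 cluster in WT. In Tipe0-/- these were the Sval1 (51.6%), Ccne2 (54.7%), Arg2 (54.9%) and Id4 clusters (58.3%). Enteroendocrine-like cells were at 53.2% in WT and 53.3% in Tipe0-/-. The lymphocyte-like background gave 50% and 52.4%.

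The type I makeup differed far more. Krt18 was 19.8% of the keratin UMIs of WT stem-like, 6.21% of cycling-like and 1.83% of enterocyte-like cells, with 15.8%, 5.67% and 1.67% in Tipe0-/-. Krt20 was 0.862%, 0.681% and 13.3% in the same WT classes, and it reached 26.0% in WT and 27.4% in Tipe0-/- cells of the Apoa4 cluster. Krt19 was between 25.7% (tuft-like) and 38.3% (cycling-like) across the WT epithelial classes other than Paneth-like cells. In WT Paneth-like cells, where Krt19 was not above the background per UMI, it was 22.99%. The 4 genes together took 0.179% of all UMIs of WT stem-like cells and 0.768% of those of WT enterocyte-like cells. UMI shares are not protein shares, since capture can differ between transcripts.

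**Figure D3:**
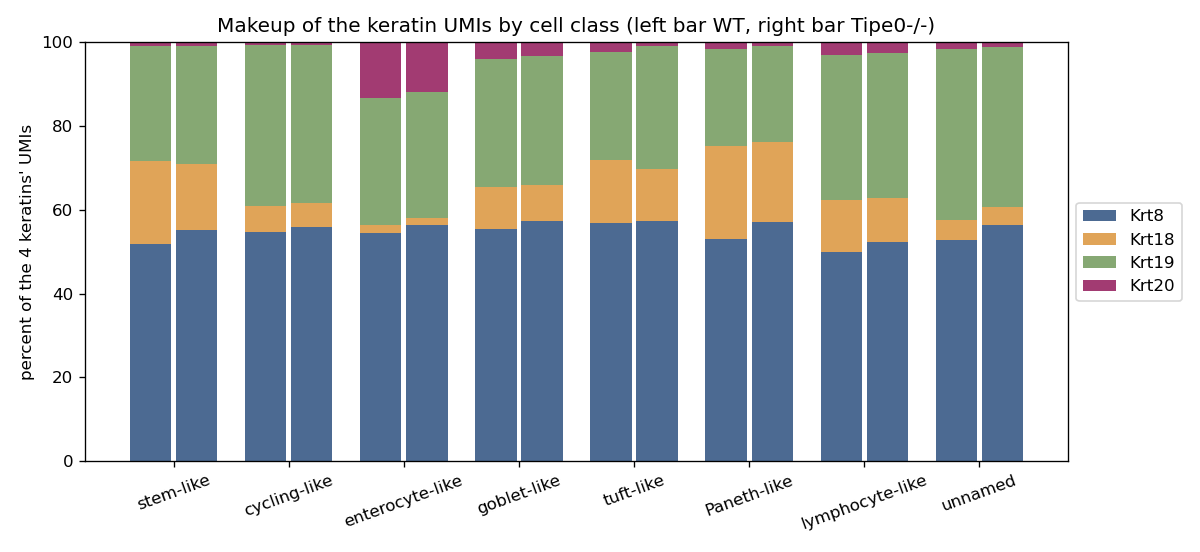
Percent of the UMIs of the 4 keratins that came from each gene, by cell class, with the left bar of each pair for WT and the right bar for Tipe0-/-. Krt8 makes up 50 to 57.5% in every bar, while Krt18 takes 19.8% in WT stem-like and 1.83% in WT enterocyte-like cells and Krt20 takes 13.3% in the latter.

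The libraries were then compared, first whole and then within classes, as the log2 ratio of Tipe0-/- over WT. Over all 11665 genes with at least 50 UMIs the median ratio was 0.15, so each value is read against the median of its own class. A gene is counted here when its ratio lies at least 0.5 from that median in either direction, which 14.7% of all genes did over whole libraries. Of the 4 keratins, 1 did: Krt20, at -0.53 (-0.58 to -0.48). Krt8 was at -0.05, Krt19 at -0.10 and Krt18 at -0.13. In bulk sums of this kind, fewer cells of a type and less RNA per cell cannot be told apart. Enterocyte-like cells, which held 77.7% of the Krt20 UMIs in WT and 71.3% in Tipe0-/-, were 28.0% of the WT and 23.2% of the Tipe0-/- cells. When each class was given an equal weight in the 2 libraries (its share of all UMIs), Krt20 was at -0.25, within 0.5 of the median, and Krt18 at -0.22.

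Within stem-like cells, where 14.5% of all genes lay that far from the median of 0.05, none of the 4 keratins did. The ratio was 0.18 for Krt8 (0.10 to 0.26), 0.13 for Krt19 and -0.24 for Krt18 (-0.38 to -0.09). With the stem-like class rebuilt from variable genes chosen by vst, it was 0.028 for Krt8 and -0.018 for Krt19, outside those intervals, and -0.28 for Krt18. The Tipe0-/- stem-like Krt19 level overlapped the lymphocyte-like background. Within cycling-like cells (13.4% of all genes, median 0.07) none did either, and the values ran from -0.14 for Krt18 to 0.03 for Krt8. Within goblet-like cells (11.7% of all genes, median 0.09) none did, with -0.34 for Krt20 (-0.45 to -0.23), -0.22 for Krt18 and at most 0.03 in size for Krt8 and Krt19. Averaged over cells, goblet-like Krt20 was 2.49 per 10000 UMIs in WT and 2.60 in Tipe0-/-, so its direction depends on how cells are weighted. Within Paneth-like cells (16.2% of all genes, median 0.49) 1 did, Krt20, from 65 and 27 UMIs, not above the background per UMI in either library. Krt18 was below the median of all genes in each of the 6 classes, by 0.20 in cycling-like to 0.68 in tuft-like cells, with no interval reaching it. In Paneth- and enterocyte-like cells its level was near the background. The shortfall was not seen in every cluster, since Krt18 was at 0.0028 (-0.14 to 0.15, median 0.070) in the Parpbp and at 0.087 (-0.10 to 0.27, median 0.092) in the Cldn8 cluster.

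Within enterocyte-like cells 18.2% of all genes lay at least 0.5 from the median of 0.15, and none of the keratins did. Krt20 was at -0.21 (-0.27 to -0.15), from 8683 WT and 3463 Tipe0-/- UMIs. Krt8 was at 0.01, Krt19 at -0.05 and Krt18 at -0.17. The clusters of the class differed from this. In the Apoa4 cluster, 23.4% of all genes lay at least 0.5 from the median of 0.14, and 2 of the 4 keratins did, Krt18 at -1.38 (-1.87 to -0.93, from 270 and 46 UMIs) and Krt19 at -0.37 (-0.46 to -0.28, from 3995 and 1383 UMIs). Both Krt18 levels there were below the background of 126 CPM, and the Krt19 value was 0.51 below the median. In the Cldn8 (17.9%) and Arg2 clusters (23.2%) none did, though Krt20 in the Cldn8 cluster, at -0.41 (-0.56 to -0.26), was just inside the limit. Krt20 was at -0.24 (-0.39 to -0.10) in the Arg2 cluster and at -0.11 (-0.18 to -0.04) in the Apoa4 cluster. The Apoa4 cluster held most of the Krt20 UMIs of the class, 5893 in WT and 2439 in Tipe0-/-. In each of the 5 villus ranges Krt20 was lower in Tipe0-/- than in WT, with ratios of -0.40, -0.60, -0.37, -0.19 and -0.24 from the lowest to the top range. No interval of these reached 0, and the median of all genes in the ranges was between 0.06 and 0.13. The top range held 17.2% of the WT and 25.8% of the Tipe0-/- enterocyte-like cells. Krt18 was lower in Tipe0-/- in the upper ranges, at -1.12 (-1.73 to -0.58) in the fourth and -0.99 (-1.79 to -0.28) in the fifth, where both libraries were below 126 CPM. Genes of the dissociation stress list summed to 274 CPM in WT and 351 CPM in Tipe0-/- enterocyte-like cells, and their mitochondrial shares were 9.24% and 12.04%. The part of these in the Krt20 values was not tested.

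The goblet-like clusters did not share the direction of Krt20. The ratio was 0.54 (0.32 to 0.76) in the Sval1 cluster, with 370 WT and 314 Tipe0-/- UMIs, and 0.24 (0.01 to 0.47) in the Id4 cluster. It was -0.28 (-0.44 to -0.12) in the Frmd3 cluster, which held 1067 of the 1752 WT and 463 of the 1112 Tipe0-/- goblet-like Krt20 UMIs. The median of all genes was 0.049 in the Sval1, 0.068 in the Id4 and 0.046 in the Frmd3 cluster. No Krt20 ratio lay at least 0.5 from its median, with 0.49 in the Sval1 cluster, and the Id4 interval contained its median. The share of thinned Sval1 cluster cells with Krt20 was 44.2% in WT and 65.6% in Tipe0-/-. The difference between these clusters was not tested.

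In tuft-like cells all 4 keratins were lower in Tipe0-/-. In this class, where 21.4% of all genes lay at least 0.5 from the median of 0.01, 2 of the 4 keratins did. Krt20 was at -1.60 (-2.07 to -1.17), from 299 WT and 49 Tipe0-/- UMIs, and Krt18 at -0.67 (-0.80 to -0.54), from 1969 and 618 UMIs. Krt8 was at -0.35 (-0.42 to -0.29) and Krt19 at -0.18 (-0.27 to -0.09). Thinned cells with Krt20 were 22.3% of 157 WT and 5.88% of 51 Tipe0-/- tuft-like cells. In CPM the Krt20 level of the latter overlapped the lymphocyte-like background. Their median depth was 16849 UMIs per cell, against 4331 in lymphocyte-like cells. As raw sums, the 51 cells held 49 UMIs of Krt20 and 108 lymphocyte-like cells held 17. The part of depth in this overlap was not tested.

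Markers of other classes also differed between the tuft-like cells of the libraries. The 20 enterocyte markers summed to 6074 CPM in WT and 2612 CPM in Tipe0-/- (19 and 18 of them with a UMI), and the 15 lymphocyte markers to 184 and 23.9 CPM (13 and 5 with a UMI). The 10 Paneth markers (446 and 314 CPM) and 19 enteroendocrine markers (284 and 86.1 CPM) were also lower in Tipe0-/-, as were the 14 tuft markers that name the class (2850 and 1907 CPM). The 12 goblet markers were higher, at 5054 CPM in WT and 7260 CPM in Tipe0-/-, as were the stem (801 and 1034 CPM) and cycling markers (1642 and 1878 CPM). Without the 86 WT and 16 Tipe0-/- tuft-like cells that held a UMI of a lymphocyte marker, Krt18 was at -0.30 and no longer 0.5 from the median, and Krt8 was at -0.23. Krt20 was at -1.67 without them, and at -1.28 without the 25 WT and 9 Tipe0-/- cells that held a UMI of the 6 enterocyte markers found in fewer than 10% of tuft-like cells. Krt19 was at -0.055 with the first set of cells left out and at -0.056 with the second. Both values are outside the interval of its main value (-0.27 to -0.09). These cells were left out after the values had been seen. A UMI of a lymphocyte marker was found in 24.2% of all WT and 9.97% of all Tipe0-/- cells. In tuft-like cells it was found in 54.8% and 31.4%, so it was more frequent there but not limited to them. The median depth of tuft-like cells was 12010 (WT) and 16849 (Tipe0-/-) UMIs per cell, against 7760 and 7307.5 over all cells. The part of such UMIs and of depth in the values with these tuft-like cells left out was not tested.

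**Figure D4:**
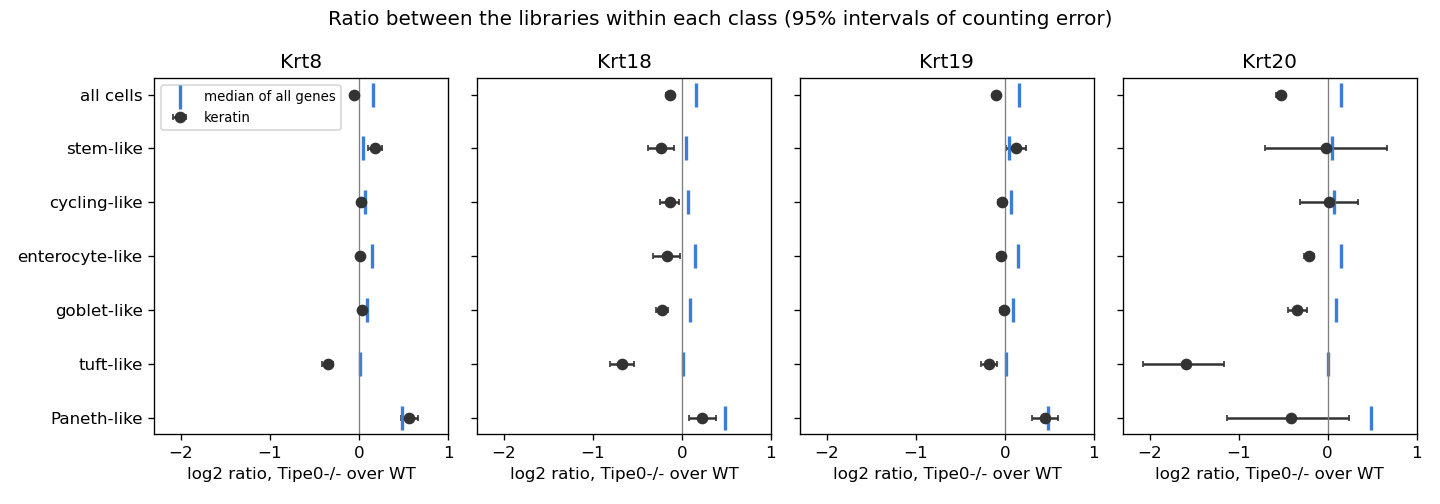
Log2 ratio of Tipe0-/- over WT for each keratin in all cells and within 6 classes (points, with 95% intervals of counting error), beside the median ratio of all genes in the same cells (blue marks). Krt20 lies at -0.53 over all cells, -0.21 in enterocyte-like and -1.60 in tuft-like cells, and Krt18 lies below the median of all genes in every class.

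Of the 51 keratin genes in the tables, 24 had no UMI, 19 had 1 to 49 and 8 had 50 or more, including 4 beside those described. Krt7, a type II keratin of ductal and glandular epithelium, was 100 CPM in WT and 109 CPM in Tipe0-/-. It was highest in goblet-like cells (151 and 155 CPM) and no class ratio was more than 0.5 from its median. Krt10, a type I keratin best known from the upper layers of skin, was 16.2 and 25.4 CPM, a ratio of 0.65 (0.49 to 0.82), and was higher in Tipe0-/- in all 6 epithelial classes. Krt23, a type I keratin, was 41.5 and 27.7 CPM in tuft-like cells and at most 5.22 CPM in the other epithelial classes.

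Krt84, a type II keratin of hair and nail, was the most unequal of these between the libraries. It had 157 UMIs in 96 WT cells and 18 UMIs in 13 Tipe0-/- cells, a ratio of -2.42 (-3.24 to -1.74). In WT it was 12.03 CPM in enterocyte-like cells (64 cells with a UMI), 11.5 in tuft-like (10 cells) and 3.02 in goblet-like cells (20 cells), and it had 0 UMIs in 303 stem-like cells. In Tipe0-/- it was 3.07 CPM in enterocyte-like cells (9 cells).

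Genes that act on or beside keratin filaments were counted in lists chosen for this purpose. Of 13 desmosome and cytolinker genes, 12 had at least 50 UMIs, with a median ratio between the libraries of 0.05. Of these 1, Dst (dystonin), lay at least 0.5 below the median of all genes (-0.35), next to Evpl (envoplakin, -0.23) and Plec (plectin, -0.21), linkers of filaments to the cell cortex, and 0 lay above it, so that 1 of 12 is set against the 14.7% of all genes. Dsp (desmoplakin), which anchors keratin to the desmosome, was at 0.21, and Jup (plakoglobin) at 0.18. In enterocyte-like over stem-like cells 6 of the 12 were at least 1 log2 higher and 1 lower, where 16.0% of all genes were higher and 33.2% lower. Plec was at 2.60, Evpl at 2.37 and Dst at 2.30.

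Of 5 other intermediate filament and lamin genes, 4 had enough UMIs. Vim, the filament of mesenchymal and immune cells, was at -1.23 between the libraries, from 196 and 52 UMIs, beside 92 WT and 16 Tipe0-/- lymphocyte-like cells. Lmnb1 (0.32) and Lmnb2 (0.31), which encode B-type lamins of the nucleus, were within 0.5 of the median of all genes. Of 4 keratin-filament regulators and 9 transcription factors of gut epithelium, all with enough UMIs, 0 lay at least 0.5 from the median. The farthest were Pnn (pinin, 0.35), Fam83h (0.03) and Tchp (trichoplein, 0.08) in the first list and Gata6 (0.48), Cdx1 (-0.08) and Klf4 (-0.04) in the second. Klf4 was 2.54 log2 higher in enterocyte-like than in stem-like cells.

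Of 5 epithelial identity genes 0 lay at least 0.5 from the median. Epcam was at 0.18 between the libraries, Vil1, which encodes the microvillus protein villin, at -0.31, Cldn7 at -0.29 and Cldn3 at -0.17. Cdh1, which encodes E-cadherin and completes the list (named after its value was seen), was at 0.45, above the median. Of 9 dissociation stress genes with enough UMIs 1 lay at least 0.5 below the median, Atf3 (-0.84), and 0 above it (14.7% of all genes in either direction), with Egr1 at 0.65 and Ier3 at -0.27.

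The genes most like each keratin were sought by Pearson correlation of log2(CPM + 1) over 12 sums, 6 classes in each of 2 libraries, among 2118 genes of at least 100 CPM in 1 of them. The points share libraries and are few, so these values only describe. They include the Paneth-like sums, for which no level of expression is read and which were the lowest for Krt8 and Krt19. Their weight in the correlations was not tested. Krt8 was nearest to Mgst3 (0.992), Ddah1 (0.992), Mlx (0.990), Krt19 (0.990) and Hist1h2bc (0.989). Krt19 was nearest to Letm1 (0.992), Krt8, Sfn (0.987), Chmp2a (0.987) and Mal2 (0.987). Krt20 was nearest to Ceacam20 (0.986), Clec2h (0.985), Cd82 (0.983), Cdkn1a (0.981), which encodes a cell cycle inhibitor, and Plec (0.979). Krt18 was nearest to Dpysl2 (0.956), Uqcc3 (0.927), Clmn (0.923), Tmem176a (0.922) and Tmem176b (0.922).

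Among the keratins themselves, Krt8 correlated with Krt19 at 0.99 and with Krt20 at 0.83, but with Krt18, its neighbour on chromosome 15, at 0.33. Krt18 and Krt20 were at -0.02. Over 24 sums of 12 clusters the nearest 5 genes shared 2 with those above for Krt8, 1 for Krt18, 1 for Krt19 and 3 for Krt20. Over these clusters Krt8 was at 0.95 with Krt19, 0.76 with Krt20 and 0.07 with Krt18, and Krt18 with Krt20 was at -0.22.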

How the data were processed

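The authors made the libraries on the Chromium System with 3′ v2 chemistry, aligned reads to mm10 and counted UMIs per gene and cell with Cell Ranger, and deposited these raw counts for every retained cell. Levels are sums of these raw counts scaled to CPM, and no cell was left out here. Clusters, class names and the villus position score used log-normalized counts. Seurat 5.3.0 (R 4.3.3) grouped the cells into clusters (14 principal components, resolution 0.8), leaving out the 51 keratin genes and 234 genes of the study's genotype comparison, which left 530 of 582 variable genes. A cluster was named by its highest marker score if at least 3 markers were found in 10% of its cells and at 1.5 times the share elsewhere. Scrublet in Scanpy 1.11.5 called 15 WT and 3 Tipe0-/- doublets, which is under 0.5% of each library and was not taken as a working call. The 5% with the highest scores in each library were left out as an alternative. UMIs were summed per class and library, 0.5 was added in ratios, and cells were thinned to 3000 UMIs at random (Python 3.11.15, numpy 2.4.6). The summing and ratio steps were tested on simulated data. The genes named are the 4 keratins, other keratins with at least 50 UMIs, up to 3 genes a list farthest from the median with Dsp, Jup, Epcam and Vil1, and the 5 most like each keratin. The keratins and the lists were chosen with earlier results of these data known. Fam83h, Tchp, Cdx1, Klf4 and other list genes are named by that rule even where close to the median.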

Additional observations from a re-analysis of the deposited data

Results flagged for a closer look

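The ratio of Krt8 between the libraries pointed in opposite directions in 2 classes. Within stem-like cells the log2 ratio of Tipe0-/- over WT was 0.18 (0.10 to 0.26, from 2345 WT and 2625 Tipe0-/- UMIs), and within tuft-like cells it was -0.35 (-0.42 to -0.29, from 7436 and 2905 UMIs). Both intervals excluded 0 and the median of all genes in the class, 0.05 and 0.01. With the classes rebuilt from 2000 variable genes chosen by vst the stem-like value was 0.028, outside its interval, and the tuft-like value -0.31, and over the other 3 alternatives run the stem-like value was 0.14 to 0.21. The opposite direction in stem-like cells thus depends on how that class is drawn. The intervals cover counting error only, and with 1 library per genotype the difference between the classes was not tested.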

How the results depend on the processing

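With totals that leave out mitochondrial and the 20 most abundant genes, the whole-library log2 ratios of Tipe0-/- over WT were -0.11 for Krt8, -0.19 for Krt18, -0.16 for Krt19 and -0.58 for Krt20. With scaling by the median ratio they were -0.21, -0.29, -0.25 and -0.68. With the same makeup of classes in both libraries they were 0.017, -0.22, -0.029 and -0.25. As a mean over cells they were -0.081 for Krt8, -0.25 for Krt18 and -0.30 for Krt20, and Krt18 was at -0.086 without the richest 1% of cells. Of 28 such values 27 kept their sign, Krt8 at equal makeup being the exception.

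The log2 ratio of enterocyte-like over stem-like cells kept its sign in all 28 alternatives run. With 2000 variable genes by vst it was 1.72 for Krt8, -1.93 for Krt18, 1.35 for Krt19 and 6.69 for Krt20. With all variable genes kept it was 1.79 for Krt8, -1.05 for Krt18 and 1.82 for Krt19, and with each cell named by its own score 1.76, -1.53 and 1.66. As a mean over cells it was 2.19 for Krt8 and -1.50 for Krt18, and Krt18 was at -1.11 at resolution 0.4. Counted over all keratins with 50 UMIs, the type II share was 55.6% in WT and 57.4% in Tipe0-/-. The cause of these shifts was not tested.

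Within stem-like cells vst gave 0.028 for Krt8 and -0.018 for Krt19. Within enterocyte-like cells Krt20 lay between -0.36 and -0.13 and Krt18 between -0.48 and 0.01 over 4 alternatives each. Leaving out the highest doublet scores within classes, the 2 sets of tuft-like cells left out, and the likeness over clusters were chosen after seeing the data. Depth limits Krt20 in stem-like (39 and 38 UMIs) and Paneth-like cells, and the 16 Tipe0-/- lymphocyte-like cells make the background there imprecise. No paired analysis was possible because each genotype has 1 library.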
